A study of Mus musculus with 59 samples.

Results

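The RNA still present after 8 h in Actinomycin D was compared between mouse embryonic stem cells (ESCs) that lack Zcchc8 (KO) and wild-type control cells. Both groups came from a derived ESC line of the BDF1 strain and grew in serum with LIF, CHIR99021 (a GSK3 inhibitor) and PD0325901 (a MEK inhibitor), and both received the drug at 5 µg/ml. Each group held 2 libraries, so the comparison rested on 4 of the 59 samples of the series. The 8 libraries of the same cells at 0 h and 4 h entered the fit to share 1 estimate of the spread. ERCC spike-in RNA was added to every one of these samples, and ribosomal RNA was depleted (KAPA RiboErase). The labels give neither the deleted part of the gene nor the number of clones. Nor do they tell whether replicates were separate cultures, and a p-value here reflects the spread of these libraries alone, which may be technical.

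Zcchc8 is the scaffold of the nuclear exosome targeting (NEXT) complex, in which it joins the RNA helicase Skiv2l2 (Mtrex) to the RNA-binding protein Rbm7. NEXT hands short-lived nuclear transcripts, such as RNAs made upstream of promoters, enhancer RNAs and read-through of unspliced genes, to the nuclear exosome, which degrades them from the 3′ end. Actinomycin D intercalates into DNA and blocks RNA polymerases, so that RNA found hours later was made before the block. The comparison therefore asks which transcripts stand at a different level after a long block of transcription when NEXT is disrupted. A difference at 8 h can date from before the drug, so it does not by itself measure decay.

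All values are the authors' normalised read counts per gene, and every log2 change is KO minus control of log2(value + 1), which understates the change of low genes. Of 23974 genes, the 6952 whose mean over the 12 libraries reached 10 entered the limma test, and a gene was called at a Benjamini-Hochberg adjusted p below 0.05. The deposited factors placed the median gene 0.63 log2 units higher in KO. Each count is therefore also given after TMM scaling of the recovered reads, which centres the bulk of genes (median change −0.00). The values do not tell a gain of most RNAs from an offset of the library factors, nor, in bulk RNA, fewer cells from less RNA per cell.

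The control libraries at 8 h held 666534 and 984585 counted reads, and the KO libraries held 954312 and 601688. Zcchc8 itself was counted with 14 and 25 reads in control and 15 and 3 in KO (values 7.57 and 11.3 against 9.56 and 3.78). That difference was not called (log2 change −0.53, adjusted p = 0.638), and too few reads remained for the 8 h libraries to check the genotype. At 0 h Zcchc8 was called lower in KO by limma (59.3 and 77.5 in control against 25.3 and 5.29, log2 change −2.42, adjusted p = 0.0332). At 4 h it was not called (32.7 and 24.7 against 21.3 and 13.6). Skiv2l2 at 8 h (36.8 and 49.7 against 61.2 and 140) was not called (1.10, adjusted p = 0.109), and Rbm7 had 0 reads in every library. Such a 0 does not tell an absent transcript from one that the counting missed. On simulated counts with 200 changed genes, the 8 h test found 58% of those set to 4-fold and 13.8% of those set to 2-fold. The simulation had no offset between the 8 h groups and gave all libraries the same spread, so these shares may not hold for the data.

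KO 8 h replicate 2 stood apart from the other libraries taken at 4 h and 8 h. Across the 6952 genes it correlated with its partner at r = 0.872 on the log2 scale, and with no library more closely, whereas KO 8 h replicate 1 correlated at 0.940 with a KO 4 h library. The control 0 h libraries correlated less closely still, at 0.837 with each other, and replicate 2 of that pair was higher by a median of 0.81 (log2). The counts of the 2 KO libraries differed by a chi-square of 14.0 per degree of freedom, against 3.56 to 4.42 in the other groups. The difference was not even across genes. Where the mean reached 100, replicate 2 exceeded replicate 1 by a median of 1.08 (log2) for the 137 genes with a noncoding RefSeq accession, and by 0.06 for the 1380 genes with an mRNA accession. In the control 8 h libraries the corresponding medians were 0.20 and 0.29. The main results below are therefore given with and without this library, and its part in the others was not tested. Results without it rest on KO 8 h replicate 1 alone, and their spread comes from the other groups.

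**Figure D1:**
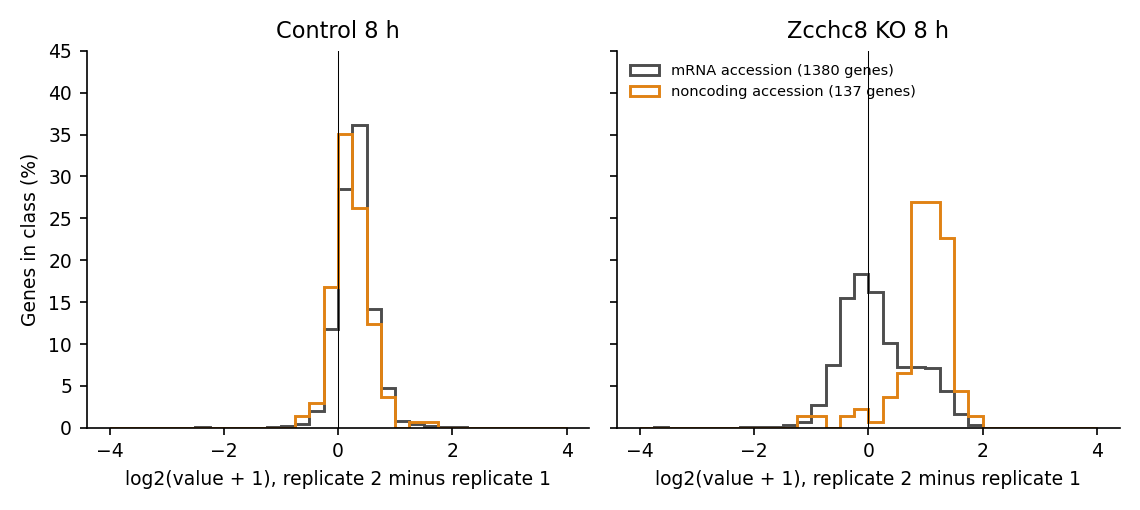
Difference between the 2 replicates at 8 h (log2(value + 1), replicate 2 minus replicate 1, x axis) as the percentage of genes in each class (y axis), for 1380 genes with mRNA accessions (grey) and 137 with noncoding accessions (orange) and a mean of at least 100. The classes overlie each other in control (medians 0.29 and 0.20) and part in KO (0.06 and 1.08).

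Most genes called at 8 h were higher in KO. On the deposited scale 339 genes (4.88%) were higher and 1 (0.0144%) was lower by limma. An unadjusted p below 0.05 was reached by 23 lower genes. After TMM scaling 100 genes (1.44%) were higher and 19 (0.273%) lower, so that the share of calls that were higher went from 99.7% to 84.0%. All 100 were among the 339. Both KO values lay above both control values in 55.3% of tested genes, and below them in 2.86%. Without KO 8 h replicate 2 the calls were 46 higher (0.662%) and 0 lower (18 lower at an unadjusted p below 0.05), or 33 higher (0.475%) and 8 lower (0.115%) after TMM scaling. Without KO 8 h replicate 1 they were 743 and 33, or 447 and 312 after TMM scaling. The count of higher genes on the deposited scale also moved without control 8 h replicate 1 (77) or replicate 2 (212), and without control 0 h replicate 1 (1011) or replicate 2 (1001), which enter only through the spread. In KO, 68.1% of the 339 genes had at least 1.5 times as much in replicate 2 as in replicate 1, against 30.9% of all tested genes.

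A set of 29 genes (0.417%) was called higher on both scales, with and without KO 8 h replicate 2. Without that library the calls rest on KO 8 h replicate 1 alone, with the spread taken from the other groups. The set was defined after that library was seen to stand apart. It held Tspan31, Hist1h4i, Mogs, Tex2, Zfp775, Spata2l, Fbxw2, AY512931, Brd2, Kctd4, Spats1, Rprl3, Zbtb32, 9030025P20Rik, 4930470H14Rik, Pgpep1, Olfr856-ps1, Slc35e2, Smpdl3b, Fut8, Myo1f, Gm16702, Abt1, Nefh, Zfp746, Kcnq1ot1, Lefty2, Ap1s3 and Copg2. By RefSeq accession 23 encode proteins and 6 are noncoding. In 20 of the 29, replicate 2 of KO was still at least 1.5 times replicate 1, so the size of their change rests on that library more than the call does.

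**Figure D2:**
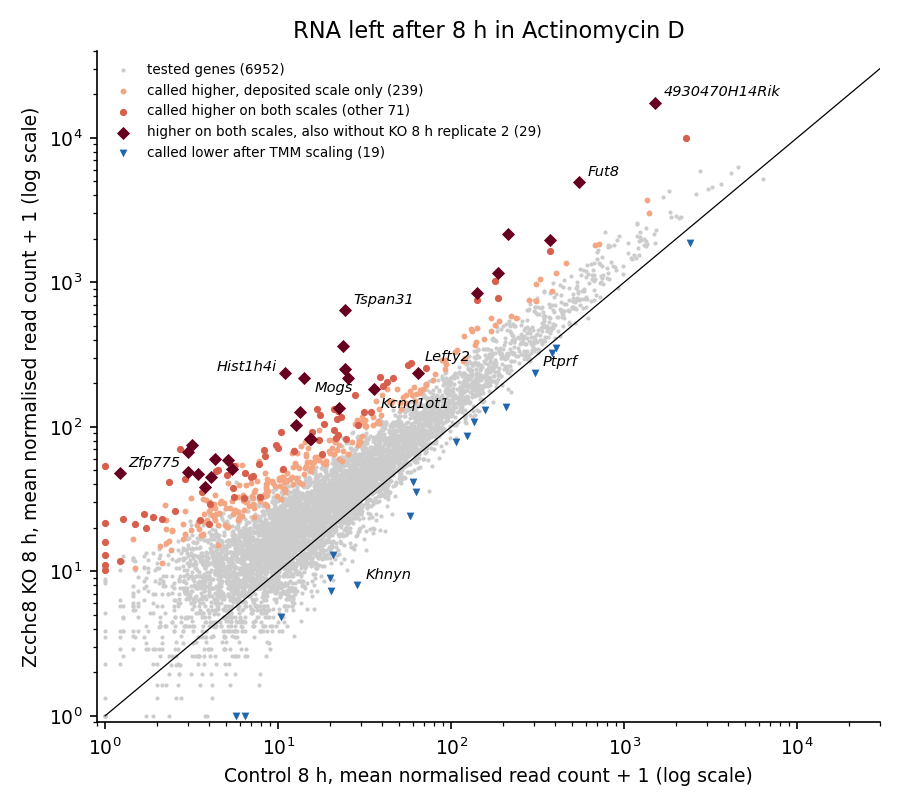
Mean normalised read count + 1 at 8 h in control (x axis, log scale) and in Zcchc8 KO (y axis, log scale), 2 libraries each, for the 6952 tested genes, with the line of equal values. Orange and red points are genes called higher, dark diamonds the 29 called on both scales with and without KO 8 h replicate 2, and blue triangles the 19 called lower after TMM scaling, which lie on or below the line.

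Tspan31, a tetraspanin membrane protein gene, gave the largest change among the genes named by level and size. Its values were 17.8 and 28.9 in control against 399 and 875 in KO. That was a 27.3-fold difference of means (log2 change 4.64, SE 0.420, adjusted p = 1.18e-10, and 4.08 without KO 8 h replicate 2, adjusted p = 1.63e-09). The annotated exons of Tspan31 overlap those of Cdk4 on the opposite strand, and no source used here gives the strand setting of the counting, so reads of the 2 genes cannot be told apart.

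Hist1h4i, a replication-dependent histone H4 gene, held 11.3 and 8.58 in control and 219.9 and 246 in KO. Here both KO libraries had nearly the same value, far above both control libraries (23.4-fold, log2 change 4.42, SE 0.399, adjusted p = 1.18e-10). Mogs, the glucosidase that starts the trimming of N-linked glycans, had 6.49 and 19.9 against 157 and 277 (16.5-fold, log2 change 4.07, SE 0.491, adjusted p = 2.32e-07). Tex2, an endoplasmic reticulum protein with a lipid-binding domain, had 19.5 and 25.7 against 244 and 475 (15.9-fold, log2 change 3.87, SE 0.402, adjusted p = 5.88e-09). Each of the 3 kept its call without KO 8 h replicate 2 on both scales, with changes of 4.34, 3.66 and 3.39 on the deposited scale.

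RefSeq promoters (GRCm38.p6) were found for 14 of the 20 named higher genes, and those of the 3 largest changes are printed to show that these genes differ in promoter sequence. The 250 bases before the annotated start are given 5′ to 3′ on the gene's strand. Capitals mark exact matches on either strand to the TATA box (TATAAA), the CCAAT box (CCAAT) and the GC box (GGGCGG).
Hist1h4i (chr13:22041363-22041612, minus strand): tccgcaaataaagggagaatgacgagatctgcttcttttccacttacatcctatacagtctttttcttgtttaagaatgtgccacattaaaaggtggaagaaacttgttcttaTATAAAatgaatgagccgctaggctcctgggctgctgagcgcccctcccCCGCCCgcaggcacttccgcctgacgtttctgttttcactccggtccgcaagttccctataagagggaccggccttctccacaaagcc
Tspan31 (chr10:127070262-127070511, minus strand): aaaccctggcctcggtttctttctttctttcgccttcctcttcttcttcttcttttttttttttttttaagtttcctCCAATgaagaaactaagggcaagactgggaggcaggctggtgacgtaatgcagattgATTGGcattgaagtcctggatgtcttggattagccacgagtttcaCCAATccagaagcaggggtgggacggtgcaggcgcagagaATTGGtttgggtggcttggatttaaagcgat
Mogs (chr6:83115256-83115505, plus strand): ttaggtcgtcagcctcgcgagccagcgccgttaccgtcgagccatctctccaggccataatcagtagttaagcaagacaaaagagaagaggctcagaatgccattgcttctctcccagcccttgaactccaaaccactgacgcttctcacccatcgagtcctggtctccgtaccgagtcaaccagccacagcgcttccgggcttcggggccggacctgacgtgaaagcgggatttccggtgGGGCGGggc
Hist1h4i held 1 TATA box and 1 GC box, Tspan31 held 4 CCAAT boxes and Mogs held 1 GC box, so no motif was shared by all 3. Among the 14 promoters 2 held the TATA box, 5 the CCAAT box and 7 the GC box, while 12.4%, 33.9% and 32.7% of 32841 RefSeq windows of the same length held them. A match describes letters in the window and not a bound site.

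Several of the most abundant transcripts of the set were noncoding or pseudogene RNAs. The noncoding 4930470H14Rik had 1319 and 1696 in control against 10249 and 24687 in KO (11.6-fold, log2 change 3.41, adjusted p = 8.91e-08). Olfr856-ps1, an olfactory receptor pseudogene, had 209 and 215 against 1226 and 3103 (10.2-fold, log2 change 3.19, adjusted p = 1.02e-06). Both were far higher in KO replicate 2 than in replicate 1, and both stayed called without it (2.78 and 2.52). Rprl3, a gene resembling the RNA component of ribonuclease P, had 21.1 and 22.1 against 166 and 101 (log2 change 2.53, SE 0.485, adjusted p = 0.000654). Here replicate 1 of KO was the higher of the pair. Kcnq1ot1, the long antisense RNA of the imprinted Kcnq1 domain, had 30.3 and 39.3 against 190.0 and 171 (5.19-fold, log2 change 2.35, SE 0.407, adjusted p = 0.000166), with nearly equal KO libraries. It overlaps exons of Kcnq1 on the other strand.

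Protein-coding genes of the set with other roles included Fut8, the enzyme that adds core fucose to N-glycans. It had 548 and 544 in control and 2089 and 7824 in KO, summed over 5 transcripts. Its log2 change was 2.89 (adjusted p = 1.31e-05), and 1.93 (adjusted p = 0.0138) without KO 8 h replicate 2, where 1 library held most of the gain. Pgpep1, a pyroglutamyl peptidase, had 11.3 and 13.6 against 100.1 and 151 (log2 change 3.21, adjusted p = 2.37e-06). Smpdl3b, a membrane-anchored phosphodiesterase, had 26.5 and 22.1 against 134 and 296 (2.99, adjusted p = 1.05e-05). For all 3 both KO values lay above both control values, as the rule for named genes required.

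Lefty2, a secreted antagonist of Nodal, had 48.6 and 78.2 in control and 244 and 223 in KO (3.68-fold, log2 change 1.90, SE 0.413, adjusted p = 0.0032). Brd2, a bromodomain reader of acetylated histones, had 2.16 and 2.71 against 31.9 and 60.5 (3.71, adjusted p = 0.000118), and it has 3 transcripts in the table. Nefh, the heavy neurofilament subunit, had 13.0 and 15.8 against 86.1 and 75.6 (2.41, adjusted p = 0.00071). Lefty2 and Nefh were thus higher in both KO libraries by like amounts. The zinc finger gene Zfp775 had 0 and 1 read in control against 60 and 44 reads in KO (adjusted p = 2.94e-06).

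The rule for named genes picked 20 genes with a KO mean of at least 100, both KO values above both control values and a call on both scales. Besides those above it picked Slc35e2, a solute carrier (12.4 and 10.8 against 66.9 and 137), and Ap1s3, a subunit of the clathrin adaptor AP-1 (log2 change 2.44, adjusted p = 0.000166). Without KO 8 h replicate 2, 14 of the 20 kept the call on both scales. Grk1, the rhodopsin kinase (2.87, adjusted p = 0.000125), A630089N07Rik (2.65) and Gm3435 (2.61) lost it after TMM scaling. Ap1b1, another AP-1 subunit (2.65, adjusted p = 0.00038), Noxo1, an organiser of NADPH oxidase (2.49), and Angpt2, a ligand of the Tie2 receptor (2.47), lost it on both scales.

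**Figure D3:**
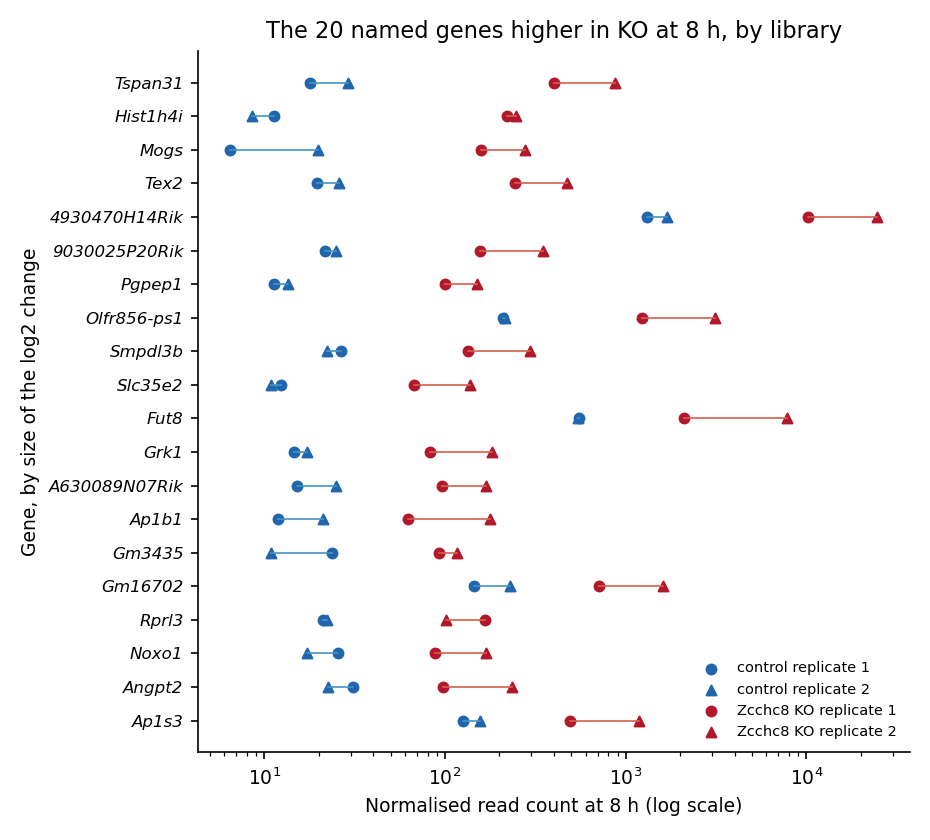
Normalised read count at 8 h (x axis, log scale) of the 20 named genes, ordered by log2 change, with circles for replicate 1, triangles for replicate 2, blue for control and red for KO. Every KO point lies to the right of both control points because the rule for named genes required it. KO replicate 2 exceeds replicate 1 in all but Rprl3.

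Another 6 genes called on both scales had no control read at 8 h: 1700125G22Rik, 4930524B15Rik, 4930578M01Rik, Acrbp, Gm13154 and Pnpla1, singled out after their values were seen. The most counted, 4930578M01Rik, had 42 and 62 reads in KO. Against the 3 counts that an observed 0 allows over the control group, it was at least 59.6-fold higher in KO, and the others at least 12.0-fold to 22.4-fold. Of the 6, 4930578M01Rik alone was called without KO 8 h replicate 2 on the deposited scale, and it was not among the 29.

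The libraries taken at 0 h and 4 h give the state of the set of 29 earlier in the time course. They are not independent of the choice of the set, since they entered the filter on low values and the spread behind the 8 h calls. All 29 had a positive change at 0 h and at 4 h, against 77.9% and 71.7% of tested genes, and their median changes were 1.99 and 2.06. At 0 h 19 of them were called higher, where 4.23% of tested genes were, and at 4 h 19 were, where 0.748% were. At all 3 times 15 were called. Pgpep1 already differed at 0 h, with 47.4 and 110 in control against 421 and 508 in KO (log2 change 2.66). At 4 h Pgpep1 was not called (37.1 and 42.5 against 105 and 116, log2 change 1.45, limma adjusted p = 0.123). Spata2l was not called at 0 h (38.2 and 45.2 against 121 and 82.9) but was at 4 h (2.18 and 3.09 against 38.7 and 60.1).

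Whether the difference at 8 h was itself larger than at 0 h was tested as a contrast of the 2 differences, which uses the same 8 h libraries. By limma only Hist1h4i passed: 1 gene was called upward and 0 downward (0.0144% and 0.0%), with 259 and 159 at an unadjusted p below 0.05. The upward calls were 3 with edgeR and 4 with DESeq2, and both called 0 downward. Before the drug it had 213 and 255 in control and 495 and 518 in KO, a log2 change of 1.12 that was not called (adjusted p = 0.101). At 4 h it already stood at 10.2 and 12.4 against 217 and 290 (4.36, adjusted p = 3.1e-10). After 8 h control cells held 4.25% of their 0 h level and KO cells 45.9%. The median gene held 36.3% in control and 45.1% in KO.

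The contrast for Hist1h4i was 3.31 (SE 0.564, adjusted p = 0.0038), and 3.14 after TMM scaling (adjusted p = 0.00285). Without control 8 h replicate 2 no gene was called in this contrast. The next smallest p-values upward were those of B3galt2, Fbxw2 and Tspan31, whose contrasts of 4.34, 3.54 and 2.49 were not called (adjusted p = 0.13, 0.235 and 0.235). Between 8 h and 4 h 0 genes were called in either direction by limma (348 upward and 40 downward at an unadjusted p below 0.05), with 1 upward by DESeq2 and 0 by edgeR. The change of Hist1h4i between these times was 0.06.

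**Figure D4:**
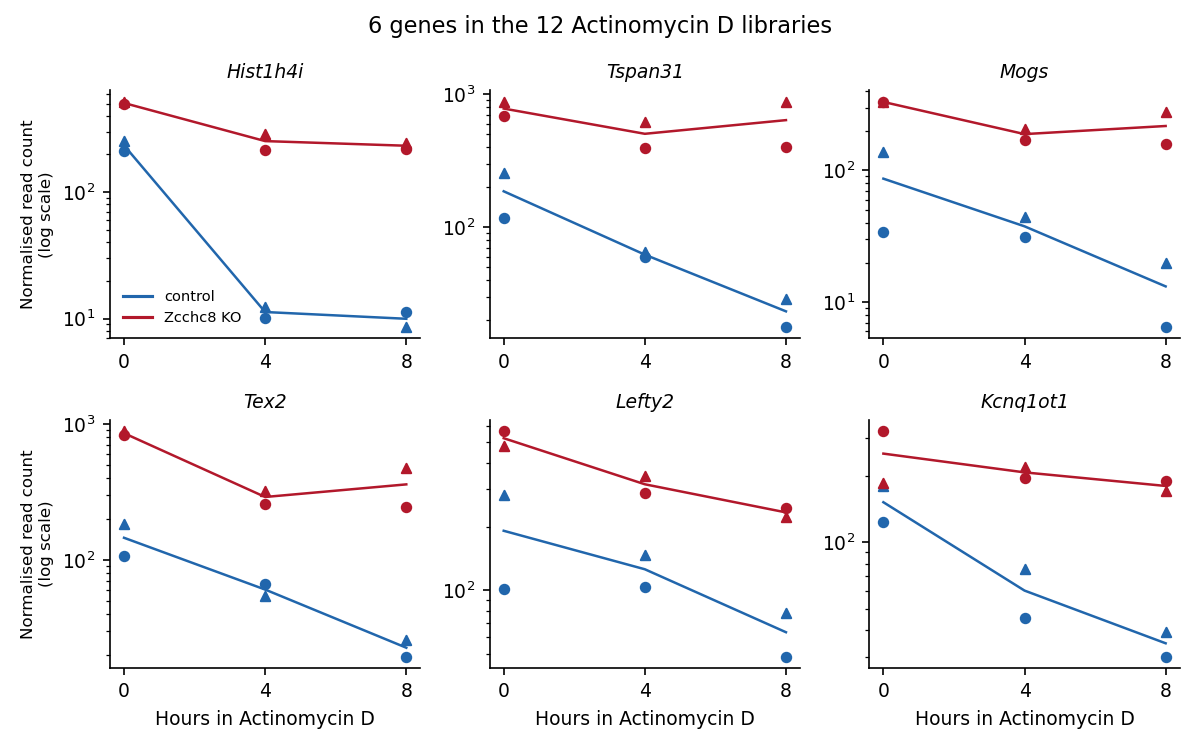
Normalised read count (y axis, log scale) at 0, 4 and 8 h in Actinomycin D (x axis) for 6 genes, with circles and triangles for replicates 1 and 2 and lines through the group means, blue for control and red for KO. Control Hist1h4i falls steeply between 0 and 4 h and stays low (11.3 and 8.58 at 8 h), while its KO libraries decline far less (219.9 and 246 at 8 h).

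Calls in the other direction depended on the scale. Khnyn, a cofactor of the antiviral protein ZAP, was the 1 gene called lower on the deposited scale, with 34.0 and 21.2 in control and 11.5 and 2.52 in KO (log2 change −2.07, adjusted p = 0.0468). Its KO libraries held 18 and 2 reads, and it was not called without KO 8 h replicate 2 (−1.16, adjusted p = 0.534). After TMM scaling the smallest p was that of Ptprf, a receptor-type tyrosine phosphatase, with 249 and 356 against 231 and 241 (adjusted p = 0.00983, while the log2 change on the deposited scale was −0.34 and was not called). Both KO values of Ptprf lay below both control values as deposited, and only the call came with TMM scaling.

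The other genes named as lower after TMM scaling were Scarna13, Ulk1, Rcor1, Hist1h2bm, Impa2, Stmn2, Oplah, Map10, Hist2h3b and Cep192. Ulk1, the kinase that starts autophagy, changed by −1.09 (adjusted p = 0.0218), and Rcor1, a corepressor of the CoREST complex, by −2.13 (adjusted p = 0.0218). Oplah, the enzyme that opens oxoproline, and Map10 had no read in KO against 19 and 23 reads over the control group, which is at least 3.68-fold and 4.46-fold lower. Without KO 8 h replicate 2, Ptprf and Hist2h3b kept the call after TMM scaling (adjusted p = 0.0248 and 0.0339) and the other 10 named genes did not.

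Gene lists were described by their counts of calls and their median, beside 4.88% called higher and a median of 0.63 over all tested genes. Of the 51 tested replication-dependent histone genes, whose mRNAs lack a poly(A) tail, 2 were higher on the deposited scale: Hist1h4i and Hist1h3d (1.08 and 5.87 against 18.5 and 10.1, log2 change 1.96, adjusted p = 0.031). The median of the list was 0.34. After TMM scaling Hist1h4i alone was higher, and Hist1h2bm and Hist2h3b were lower. The list as a whole had little RNA left, with a median of 1.48% of the 0 h level in control and 1.90% in KO, while Hist1h4i held 4.25% and 45.9%. None of the 5 linker histone genes was called (median 0.43).

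Transcripts named for their antisense or opposite-strand position, included 6 higher genes among 36 tested (16.7%, median 0.99). These were Kcnq1ot1, Ppp2r2cos (1 and 0 reads against 31 and 19, adjusted p = 0.00687), Nphs1os (1.74), Dbhos (1.86), Has2os and Uchl1os. Without KO 8 h replicate 2 only Kcnq1ot1 remained, the median was 0.57, and after TMM scaling it was −0.03. The median member was 0.88 (log2) higher in KO 8 h replicate 2 than in its partner. Of 8 nuclear long noncoding RNAs, 1 (Kcnq1ot1) was called (median 0.80), and Nespas (2.38, adjusted p = 0.0714) was not.

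Small nucleolar and Cajal body RNAs lay on the other side. All 8 tested members had negative changes (median −1.28, and −1.94 after TMM scaling), and none was called on the deposited scale. After TMM scaling Scarna13 (51.3 and 62.8 against 30.0 and 16.4, change −1.98, adjusted p = 0.0188) and Scarna2 (−1.24, adjusted p = 0.0479) were lower, and without KO 8 h replicate 2 both calls ended (adjusted p = 0.237 and 0.446). The median was −0.46 without KO 8 h replicate 2, in which members lay 1.28 log2 units below replicate 1. Among RNA polymerase III and related transcripts, a list added after the values were seen, Rprl3 was higher. Rpph1 was lower after TMM scaling (−1.10, adjusted p = 0.0353), and Rmrp (−0.38) and Terc (0.10) were not called. Rpph1 did not keep its call without KO 8 h replicate 2, in which the median member lay 1.01 log2 units below replicate 1. After TMM scaling the median of this list was −0.80 with that library and −0.19 without it.

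Of 99 numbered zinc finger genes, 8 were higher (8.08%, median 0.60) and 3 after TMM scaling. Zfp775, Zfp746 (10.8 and 17.6 against 77.1 and 84.4, log2 change 2.46, adjusted p = 0.000608) and Zfp488 (2.35, adjusted p = 0.000166) were the 3. Olfactory receptor genes, listed after their values were seen, had 4 tested members of 1121 in the table, and all 4 were higher: Olfr856-ps1, Olfr986 (3.45, adjusted p = 0.000263), Olfr613 (2.27, adjusted p = 0.000399) and Olfr94 (1.68, adjusted p = 0.0331). Testing required a mean of at least 10 over all 12 libraries, which a gene high in KO alone can reach. That all 4 were higher is therefore not a result about the family. After TMM scaling Olfr94 was not called, and without KO 8 h replicate 2 Olfr856-ps1 and Olfr986 kept the call on the deposited scale.

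Among signalling and chromatin lists, Lefty2 and the receptor Acvr2a (1.66, adjusted p = 0.0336) were the 2 higher genes of 10 in the Nodal pathway, and Lefty2 was the 1 after TMM scaling. Fgf17, a growth factor, was the 1 of 8 in the FGF and ERK feedback list (2.70 and 5.42 against 22.9 and 68.0, log2 change 3.06, adjusted p = 0.00149), and it was lost without KO 8 h replicate 2. Cbx3, a heterochromatin protein, and Suv39h1, a histone H3 lysine methyltransferase, were the 2 of 11 retrotransposon silencing genes (1.83, adjusted p = 0.00387, and 2.65, adjusted p = 0.0179). Of these 2, Cbx3 was called after TMM scaling (adjusted p = 0.026), and neither was without KO 8 h replicate 2.

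Integrator, the complex that cleaves nascent noncoding RNA, had 3 of 6 tested subunits called on the deposited scale (median 1.47): Ints5 (2.25, adjusted p = 0.00658), Ints6 (2.15, adjusted p = 0.0116) and Ints2 (1.86, adjusted p = 0.0195). None of the 3 was called after TMM scaling (adjusted p = 0.0622, 0.0855 and 0.195) or without KO 8 h replicate 2. Among 15 N-glycan processing genes Mogs and Dpagt1, the enzyme that starts the lipid-linked sugar (2.29, adjusted p = 0.012), were higher, and Mogs alone kept the call. Immediate early genes, which have short-lived mRNAs, had 1 call in 15, Ier2 (1.75, adjusted p = 0.0344), which was lost after TMM scaling.

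Lists of housekeeping genes held few calls. Cytosolic ribosomal protein genes had 1 call in 67, the retrogene Rpl10l (2.31, adjusted p = 0.0413), with a median of 0.49 and −0.18 after TMM scaling. Mitochondrial ribosomal proteins had 1 in 63 (Mrps26, median 0.62), respiratory chain subunits 1 in 62 (Cox7a1, median 0.43) and proteasome subunits 0 in 29 (median 0.40). In glycolysis 0 of 9 were higher (median 0.05), and Pgk1 was lower after TMM scaling (176 and 238 against 178 and 94.5, −1.32, adjusted p = 0.0241). The 14 tested genes of the nuclear exosome and its adaptors had no call (median 0.70), and the closest was the exosome subunit Exosc9 (64.3 and 79.1 against 126 and 233, log2 change 1.25, adjusted p = 0.0516). None of 20 genes of cytosolic mRNA decay (median 0.88), 16 p53 targets (0.81) or 11 RNA polymerase II subunits (0.77) was called. After TMM scaling none of these lists held a higher gene, and Pgk1 and the ATP synthase subunit Atp5a1 were the 2 called lower. Neither kept that call without KO 8 h replicate 2. With TMM scaling, the glycolysis median was −0.61 with that library and −0.32 without it. That of the respiratory chain was −0.23 with it and −0.02 without it.

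**Figure D5:**
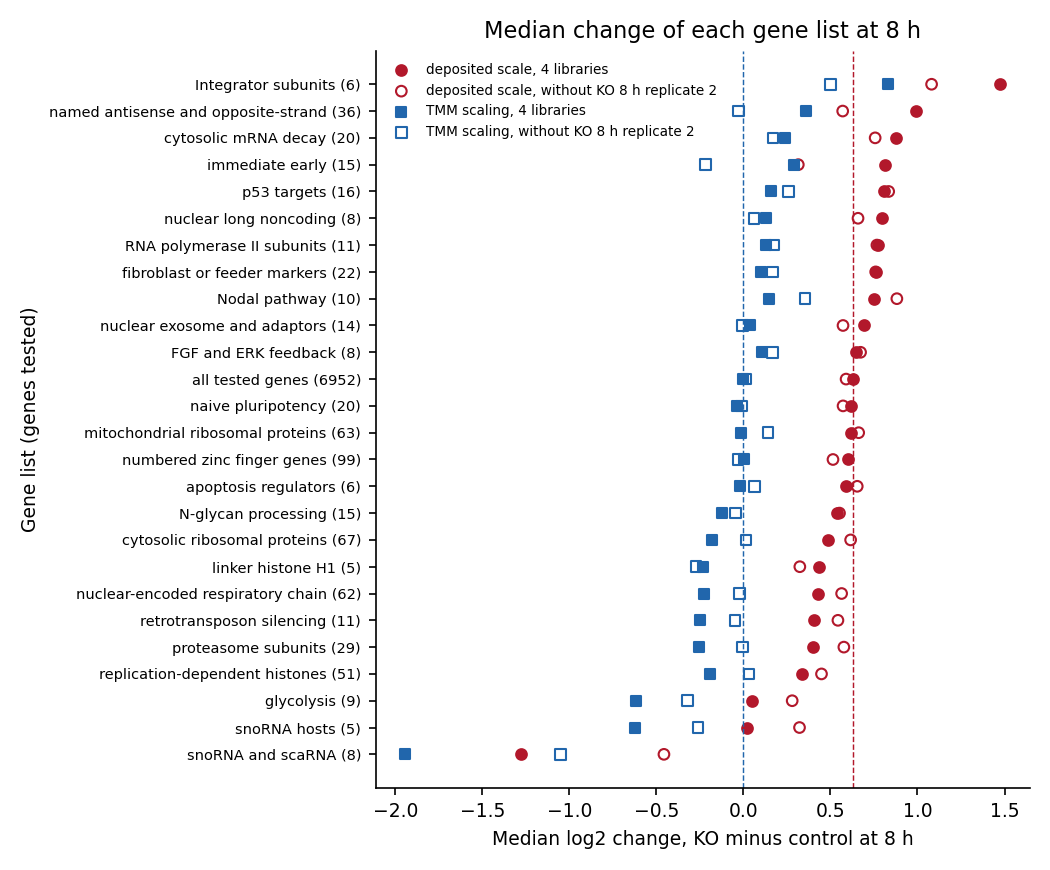
Median log2 change at 8 h, KO minus control (x axis), of each gene list with at least 5 tested genes (y axis, number tested in brackets), on the deposited scale (red circles) and after TMM scaling (blue squares), with all 4 libraries (filled) and without KO 8 h replicate 2 (open). Dashed lines mark the medians over all tested genes (0.63 and −0.00), and small nucleolar RNAs lie farthest to the left.

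Classes made without the 8 h libraries were compared in the same way. Of genes that control cells lost fastest between 0 and 4 h (the lowest of 5 equal bins, 1391 genes), 10.4% were higher at 8 h, against 1.80% in the bin that was lost least. Their median changes after TMM scaling were 0.25 and −0.12, and 0.15 and 0.01 without KO 8 h replicate 2. Genes with several transcripts were called higher in 8.70% of 414 cases and those with 1 transcript in 4.63% of 6538. KO 8 h replicate 2 exceeded replicate 1 by medians of 0.62 and 0.08 (log2) in these 2 classes. Genes with noncoding accessions were called higher in 13.2% of 363 cases and genes with mRNA accessions in 4.42% of 6589, and without KO 8 h replicate 2 in 2.20% and 0.577%. After TMM scaling and without that library the calls were 7 of 363 and 26 of 6589, with medians of −0.09 and 0.02. Genes with an exon overlap on the opposite strand were called in 6.96% of 1321 cases against 4.28% of 5562, and without that library in 0.454% and 0.701%. The classes thus differ in the share called, and those of accession and overlap reverse the order of their medians on both scales without the library that stood apart.

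Markers were used to check the labelled cell type. The pluripotency factor Pou5f1 had 144 and 201 in control and 193 and 103 in KO. Sox2 had 28.6 and 68.7 against 54.2 and 76.8, and neither was called. The summed level of the 31 listed naive pluripotency genes was 1301 and 1676 in control and 2049 and 1800 in KO. Of these, 20 reached the level for testing. Nanog, Esrrb, Tbx3, Prdm14, Dppa4, Tet1 and Nr5a2 were among those that did not. Of 20 tested naive pluripotency genes Dppa3 alone was called (2.16 and 8.13 against 37.0 and 69.3, log2 change 3.27, adjusted p = 0.00187), and it was lost after TMM scaling (adjusted p = 0.0933) and without KO 8 h replicate 2 (adjusted p = 0.102).

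Fibroblast or feeder markers were also abundant. Col1a1 had 4056 and 5082 in control and 7215 and 5285 in KO. The summed level of the 29 markers in the table was 9325 and 11655 in control and 16928 and 14030 in KO, with Sparc, Pdgfrb, Postn and Timp1 at 0 in all 4 libraries. None of the 22 tested was called at 8 h (median 0.76, against 0.63 over all tested genes). Their median change was 1.21 at 0 h and 0.99 at 4 h, against 0.44 and 0.29 over all tested genes. The part of these cells in the other results was not tested. Of 16 primitive endoderm markers 9 had no read at 8 h, as did 8 of 18 two-cell-like markers, of which 0 reached the level for testing. Of the trophoblast, neuroectoderm and mesoderm lists 2 of 13, 4 of 13 and 1 of 10 genes were tested, and none of those was called.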

How the data were processed

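Total RNA-seq libraries of control and Zcchc8 KO ESCs at 0, 4 and 8 h in Actinomycin D were used (12 of 59 samples). The authors deposited a normalised signal, in which each RefSeq transcript's reads are divided by 1 factor per library. The submitters' processing notes name the build mm9 with TopHat2 2.1.1, HTSeq 0.6.0 and DESeq2. No source used here gives settings, strand or the rows behind the factors, and the table held 0 spike-in rows. Within 0.001 reads, 100% of values were whole multiples of the value of 1 read, so whole reads were recovered, and edgeR on these reads called 574 genes higher and 1 lower at 8 h. Library totals were 465324 to 1364523 reads.

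Of 33896 rows, 978 repeats were dropped and 32918 transcripts were summed to 23974 gene symbols. Genes with a mean of at least 10 were fitted on log2(value + 1) with limma 3.58.1 (trend and robust options, 6 group means over 12 libraries, two-sided) in R 4.3.3. Adjusted p-values without another name are limma's, after Benjamini-Hochberg adjustment over 6952 genes, called below 0.05. The test was checked on simulated data. Alternatives were TMM scaling, edgeR 4.0.16, DESeq2 1.42.0, other pseudocounts and filters, the replicate block and leaving out each library; combinations of TMM with leaving out a KO 8 h library were added after the data were seen. Intervals and floors cover counting error only.

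Named genes were Zcchc8, Rbm7 and Skiv2l2; the 20 largest of those called higher on both scales with a KO mean of at least 100 and no overlap; the 12 of smallest p after TMM scaling among those called lower on either scale without overlap; for changes between times, up to 5 called in each direction or else the 3 of smallest p; and up to 4 of smallest p per list. Others are said to be chosen after their values were seen, or serve as defining markers or as members of a stated set. The comparison, its gene lists and the marker lists were chosen with earlier results of these data known. Exon overlap came from a GRCm38 annotation matched by RefSeq transcript identifier (99.0% of tested genes).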

Additional observations from a re-analysis of the deposited data

Results flagged for a closer look

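By limma, Hist1h4i was the 1 gene whose difference between KO and control changed from 0 to 8 h by a test of the change itself; edgeR called 3 genes upward and DESeq2 4. The KO minus control difference was larger at 8 h than at 0 h by 3.31 log2 units (limma with Benjamini-Hochberg adjustment, SE 0.564, adjusted p = 0.0038), with both KO libraries above both control libraries at 8 h. Before the drug the difference was 1.12, at 4 h 4.36 and at 8 h 4.42. The contrast was 3.14 after TMM scaling, and no gene passed it without control 8 h replicate 2.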

How the results depend on the processing

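Higher genes at 8 h numbered 339, against 100 after TMM scaling, 574 with edgeR and the deposited factors, 111 with edgeR and TMM, 152 with DESeq2, 94 with no filter, 87 with the limma trend and robust options off, and 46 to 1011 when 1 library was left out. Lower genes numbered 1, against 19, 1, 16, 24, 0 and 2 under those 6 settings, 0 with a pseudocount of 5, 0 with a mean of at least 50, and 0 to 33 when 1 library was left out. With TMM scaling and without KO 8 h replicate 2, 33 were higher and 8 lower; without replicate 1 instead, 447 and 312. The cause was not tested.

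For the change from 0 to 8 h, upward calls were 1, against 3 with edgeR, 4 with DESeq2, 0 with no filter, 0 with the options off and 0 to 144 with 1 library left out. Downward calls were 0, against 0 to 53 with 1 library left out. With TMM scaling and without KO 8 h replicate 1 they were 170 and 94. For the change from 4 to 8 h, upward calls were 0, against 1 with DESeq2, 4 with the contrasted libraries alone and 0 to 1 with 1 library left out, and downward calls were 0 to 1 with 1 library left out. With TMM scaling and without KO 8 h replicate 1 they were 230 and 76.

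The median change was 0.63, −0.00475 after TMM scaling and 0.361 with no filter. The replicate block gave 754 higher and 2 lower at 8 h, and 4 upward from 0 to 8 h. The deviations of same-numbered control and KO 8 h libraries correlated over genes at −0.03. That measure leaves out an offset shared by all genes of a library, so it cannot tell whether the numbers pair libraries. Lamc1 (0.17) and Terc (0.10) turned to −0.61 (adjusted p = 0.0385) and −1.12 (adjusted p = 0.0339) with TMM scaling and without KO 8 h replicate 1. All 20 named higher genes stayed called at 8 h, except 16 with the options off, 17 without KO 8 h replicate 2, 14 with TMM scaling as well, and the 2 that the fit of genes with 1 transcript left out. In counts simulated at these depths and this number of libraries, 13.8% of 2-fold and 58.0% of 4-fold changes were called. That simulation had no offset between the 8 h groups and gave all libraries the same spread. The part of depth alone was not tested.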
